A study of Mus musculus with 6 samples.

Results

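The insulin-like growth factor (IGF) genes examined here were the ligands Igf1 and Igf2, the receptor Igf1r, the adaptor Irs1 and the binding proteins Igfbp2 to Igfbp7. They were chosen by gene name alone, and every non-control probe that the array design assigns to them was taken, which gave 10 genes and 18 probes among 28786 genes and 41174 probes on the array. The samples were primary cultures of C4HD, a hormone-dependent ductal mammary tumour of female BALB/c mice that arose under the progestin medroxyprogesterone acetate (MPA, 40 mg) and is passaged in MPA-treated animals. For 48 h the cultures carried either the precursor of miR-16 (pre-miR-16, 30 nM) or, at the same dose, a scrambled precursor that yields no known mammalian miRNA (pre-miR-Control). Both groups shared the tumour, the MPA-treated host, the transfection reagent and the dose. miR-16 is a microRNA, a short RNA that represses transcripts it pairs with. There were 3 arrays per group, called biological replicates by the submitters, who do not say whether each came from a separate animal. The cultures were enriched for epithelial cells by repeated sedimentation and are described as ErbB-2 positive.

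IGF1 and IGF2 are secreted growth factors that bind IGF1R, a receptor tyrosine kinase. The activated receptor recruits adaptors such as IRS1, which lead to the PI3K-AKT-TOR and RAS-ERK branches. Binding proteins hold the ligands outside the cell and can lengthen their life, restrain them or, once cut by proteases, release them. In the mammary gland IGF1 is made largely by stromal cells, while the epithelium carries the receptor.

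A microRNA pairs with transcripts mainly through its seed, bases 2 to 8. The mature miR-16 sequence is shown with its seed in capitals, because the precursor supplied it to the treated cultures. RefSeq places it at chr3:69009918-69009939 on the plus strand and at chr14:61631936-61631957 on the minus strand of GRCm38.p6.
mmu-miR-16-5p: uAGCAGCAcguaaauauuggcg
The reverse complement of that seed, TGCTGCT, was searched in the sense strand of all 60-base probes, and was found in 224 of 41174 probes (0.544%) and in 1 of the 18 IGF probes, a probe of Igf1. On the opposite strand, read as AGCAGCA, it was found in 183 probes (0.4445%) and in 1 IGF probe, that of Igfbp2. The window of the Igf1 probe that holds the match, bases 2 to 31, is shown with the match in capitals.
Igf1 A_51_P147942: gcaggatccttTGCTGCTtgagcaacctgc
These are matches of letters within short probes and not a search of whole transcripts.
The whole probes printed next are the tested Igf1 probe, which holds no match, the Igfbp2 probe, whose control arrays were the most spread of the tested IGF genes, and an Igfbp3 probe that stayed at background beside another that did not.
Igf1 A_52_P536434: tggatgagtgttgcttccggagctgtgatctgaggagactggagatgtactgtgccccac
Igfbp2 A_51_P423308: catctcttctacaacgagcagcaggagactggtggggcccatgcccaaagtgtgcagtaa
Igfbp3 A_51_P228472: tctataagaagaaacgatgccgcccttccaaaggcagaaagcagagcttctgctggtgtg

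Levels are log2 processed signals minus the log2 of the 75th percentile of that array, so a level of 0 is as bright as that percentile, and they were compared only within a probe. The percentile lay between 626 and 911 signal units, the share of spots that the scanner software called well above background ran from 57.2% to 64.0%, and 0 were saturated. A gene was tested when one of its probes passed that call on every array of either group, which held for 7 of the 10 IGF genes and for 16702 genes in all. Igf2, Igfbp4 and Igfbp5 were not tested. All 7 tested IGF genes were higher in pre-miR-16 at an adjusted p under 0.05 (limma, Benjamini-Hochberg over all genes), and 0 were lower. Over all tested genes, 16% were called higher and 33.1% lower. Igf1 and Igfbp3 passed the filter only through the pre-miR-16 arrays, so the count of 7 is not a share of all IGF genes. Scaling the arrays on spike-in probes in place of the percentile added 0.38 to each log2 change and moved the median change of all genes from -0.20 to 0.18, and under it 3672 genes were higher and 1041 lower in place of 2664 and 5533. The changes of the 7 tested IGF genes were already above 0, so adding to them could not change their direction. All 7 stayed called higher under that scaling. In bulk RNA, more cells of a type and more RNA per cell cannot be told apart.

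**Figure D1:**
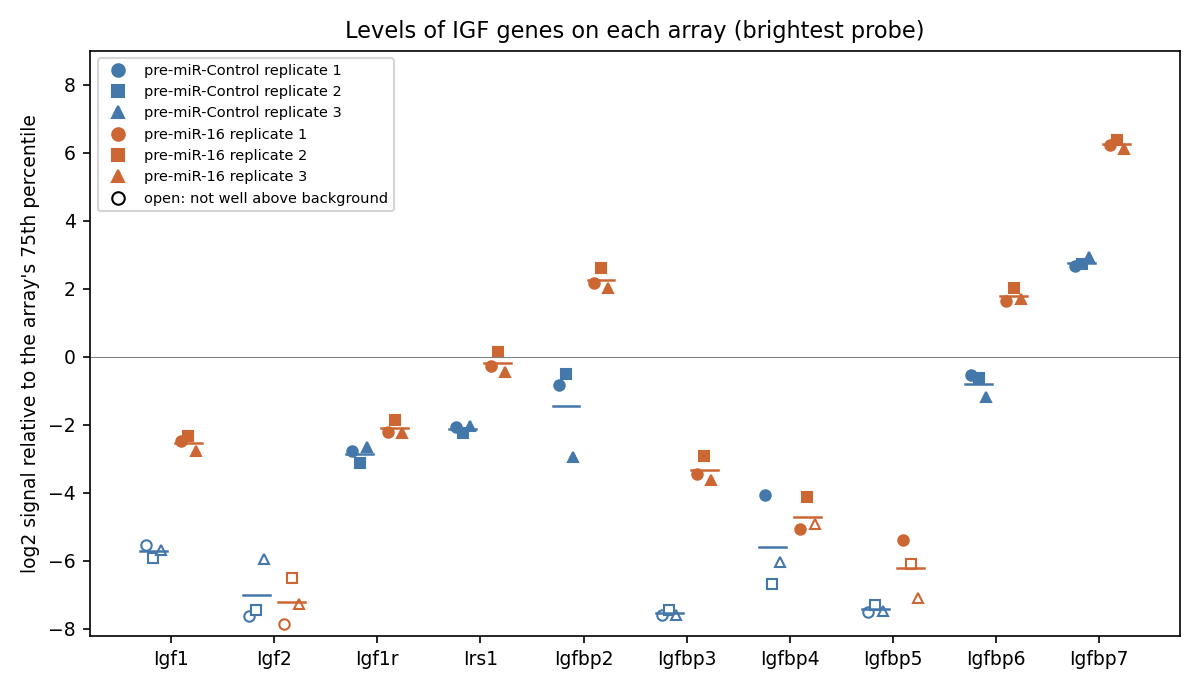
Level of each IGF gene on each of the 6 arrays, by its brightest probe, on a log2 scale relative to the array's 75th percentile. Blue marks are pre-miR-Control, orange marks pre-miR-16, shapes are replicates, short lines are group means, and open marks were not well above background. All 3 pre-miR-16 arrays lie above all 3 control arrays for Igf1, Igf1r, Irs1, Igfbp2, Igfbp3, Igfbp6 and Igfbp7, while the groups overlap for Igf2 and Igfbp4, and Igfbp5 lies at background on all arrays but pre-miR-16 replicate 1.

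Among the ligands, Igf1, the growth factor that activates IGF1R, was near the detection limit in control cultures and measurable in pre-miR-16 cultures. The tested probe (A_52_P536434, mm7 chr10:87471884-87471943) read -5.52, -5.92 and -5.67 on control replicates 1 to 3 and -2.48, -2.34 and -2.78 on the pre-miR-16 replicates. It was at background on the 3 control arrays and well above it on the 3 pre-miR-16 arrays. Measured means were -5.70 ± 0.20 and -2.53 ± 0.22 (SD, n = 3 arrays each), and limma gave an adjusted p of 3.49e-05. Set against the lowest signal that counted as above background on each control array, Igf1 was at least 6.87-fold higher in pre-miR-16.

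A second Igf1 probe moved the same way and was printed on the array in 10 spots. This probe (A_51_P147942, chr10:87488982-87489041), the one that holds the seed match, read -5.90, -6.53 and -6.91 on control arrays and -2.54, -2.20 and -2.70 on pre-miR-16 arrays. Its spots differed from each other by an SD of 0.44 to 0.51 on control arrays and of 0.06 to 0.09 on pre-miR-16 arrays. On control arrays 1 spot was well above background, on replicate 3, whereas all 10 were on each pre-miR-16 array. The bound was at least 7.12-fold, with a measured log2 difference of 3.96 ± 0.27 (SE) and an adjusted p of 1.34e-04 over all probes in limma, where 15.2% of the probes tested were called higher. The third Igf1 probe (A_52_P306327, chr10:87420848-87420907) was not well above background on any array, with means of -7.25 and -6.87. Another background correction, normexp, gave 1.18 for the change of Igf1, below the bound from the processed signal, and the deposited series matrix gave 1.30.

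Igf2, the fetal growth factor encoded by an imprinted gene, was not detected. Its probe of 10 spots (A_51_P516826, chr7:139078075-139078135) read -7.60, -7.44 and -7.60 on control arrays and -7.50, -7.20 and -7.18 on pre-miR-16 arrays, and 0 spots were well above background on any array. The other Igf2 probe (A_51_P516833, chr7:139078490-139078549) read -7.62, -7.46 and -5.94 against -7.85, -6.51 and -7.28, also at background on all 6 arrays. A difference in Igf2 was not detectable at this signal.

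Igf1r, the receptor of both ligands, was higher in pre-miR-16 by the smallest amount of the tested IGF genes. Its main probe (A_51_P318365, chr7:64082649-64082708) read -2.78, -3.13 and -2.64 on control arrays and -2.22, -1.86 and -2.24 on pre-miR-16 arrays. The groups did not overlap, and control replicate 3 and pre-miR-16 replicate 3 were the closest pair across groups. The mean went from -2.85 ± 0.25 to -2.11 ± 0.21 (SD, n = 3), a log2 change of 0.74 ± 0.17 (SE, 95% interval 0.33 to 1.16) or 1.68-fold, with an adjusted p of 0.0135 in limma. Over the alternatives it ranged from 0.42 with normexp to 1.13 with spike-in scaling, with a highest adjusted p of 0.0487 in limma. A second probe (A_52_P668647, chr7:64043608-64043667) read -4.85, -5.31 and -5.43 against -6.08, -4.95 and -6.37, was well above background on 1 array of each group, and was not tested.

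Irs1, the adaptor that docks to activated IGF1R and insulin receptors and recruits PI3K, was 3.80-fold higher. Its main probe (A_52_P175242, chr1:82447810-82447869) read -2.05, -2.25 and -2.04 on control arrays and -0.27, 0.15 and -0.43 on pre-miR-16 arrays. The control arrays lay within a narrow band and all pre-miR-16 arrays stood clear of it. The log2 change was 1.93 ± 0.17 (SE), from -2.11 ± 0.12 to -0.18 ± 0.30 (SD, n = 3), with an adjusted p of 3.79e-04 in limma. The second Irs1 probe (A_52_P171212, chr1:82451682-82451741) read -4.24, -7.06 and -7.63 against -6.30, -5.95 and -5.25. It was above background on control replicate 1 only, so it could not be set against the main probe.

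**Figure D2:**
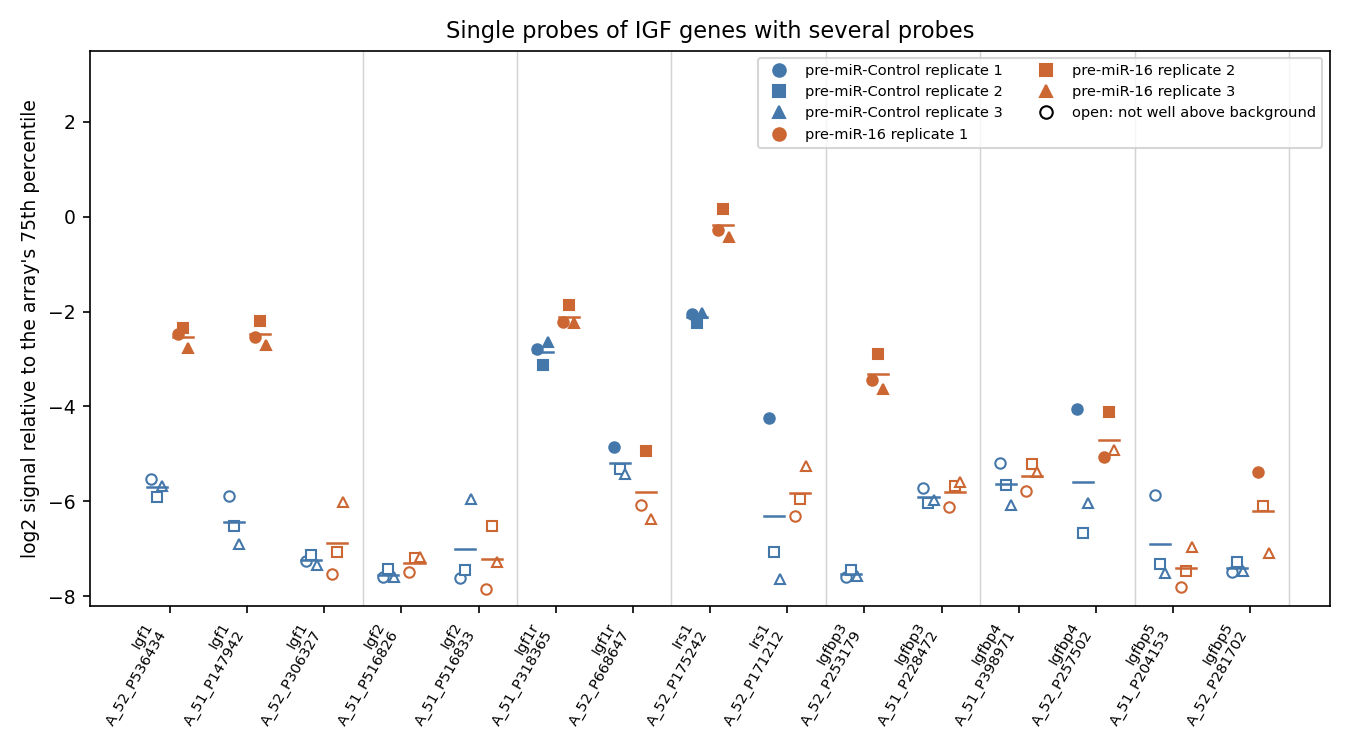
Each probe of the IGF genes that have several probes, on each array, in log2 signal relative to the array's 75th percentile, with marks as in the plot of levels by gene. Of the Igf1 probes, 2 are at background on control arrays and above it on all pre-miR-16 arrays, and of the Igfbp3 probes 1 is.

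Of the binding proteins, Igfbp7, Igfbp2 and Igfbp6 were measurable in both groups. Igfbp7, a matrix-associated member of the wider family with low affinity for IGFs, had the smallest standard error of the tested IGF genes. Its probe (A_51_P472292, chr5:77280659-77280718) read 2.66, 2.72 and 2.92 on control arrays and 6.24, 6.38 and 6.12 on pre-miR-16 arrays. The groups were far apart relative to the differences within them. The change was 3.48 ± 0.12 on the log2 scale (SE), or 11.1-fold, from 2.77 ± 0.14 to 6.24 ± 0.13 (SD, n = 3), with an adjusted p of 1.19e-05 in limma.

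Igfbp2, a high-affinity binding protein that prefers IGF2, rose with much more spread among the controls. Its probe (A_51_P423308, chr1:73093964-73094023) read -0.83, -0.52 and -2.96 on control arrays and 2.16, 2.62 and 2.01 on pre-miR-16 arrays. Control replicate 3 was far below the other controls, and the groups did not overlap. The log2 change was 3.70 ± 0.64 (SE, 95% interval 2.15 to 5.25), or 13.0-fold, from -1.43 ± 1.33 to 2.27 ± 0.32 (SD, n = 3), with an adjusted p of 0.00479 in limma. Without control replicate 3 the log2 change was 2.94, with an adjusted p of 7.77e-04 in limma.

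Igfbp6, which also prefers IGF2, was 5.99-fold higher. Its probe (A_51_P374571, chr15:102135489-102135549) read -0.54, -0.63 and -1.19 on control arrays and 1.64, 2.03 and 1.71 on pre-miR-16 arrays. Again control replicate 3 was lowest, by less than for Igfbp2. The log2 change was 2.58 ± 0.20 (SE), from -0.79 ± 0.35 to 1.79 ± 0.21 (SD, n = 3), with an adjusted p of 2.45e-04 in limma.

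Igfbp3, the main carrier of IGFs in the circulation, was reported differently by its probes. The tested probe (A_52_P253179, chr11:7158599-7158658) read -7.59, -7.45 and -7.58 on control arrays, at background on all, and -3.44, -2.90 and -3.63 on pre-miR-16 arrays, above background on all. Igfbp3 was at least 3.97-fold higher by this probe, with an adjusted p of 2.48e-05 in limma and measured means of -7.54 ± 0.08 and -3.32 ± 0.38 (SD, n = 3). The probe A_51_P228472, whose 60 bases span 1010 genomic bases (chr11:7160474-7161483), read -5.72, -6.05 and -5.97 against -6.13, -5.68 and -5.59. It was not well above background on any array, and its means differed by 0.11. With normexp the change by the tested probe was 0.93, below the bound from the processed signal, and in the series matrix it was 1.10.

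Igfbp4 and Igfbp5, binding proteins made by many mesenchymal and epithelial cells, stayed at or near background. The brighter Igfbp4 probe (A_52_P257502, chr11:99161059-99161118) read -4.06, -6.67 and -6.04 against -5.06, -4.13 and -4.91 and was above background on 1 control and 2 pre-miR-16 arrays. Its groups overlapped, and with no filter on dim probes the change was 0.89 ± 0.71 (SE, adjusted p = 0.488 in limma). The other Igfbp4 probe (A_51_P398971, chr11:99157316-99157375) was at background throughout, from -6.07 to -5.20.

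The Igfbp5 probe A_52_P281702 (chr1:73100116-73100175) read -7.50, -7.28 and -7.47 against -5.39, -6.11 and -7.09 and was above background only on pre-miR-16 replicate 1, so that the groups did not overlap but 5 of 6 values were at background. With no filter its change was 1.22 ± 0.43 (SE, adjusted p = 0.106 in limma). The probe A_51_P204153 (chr1:73102653-73102712) ranged from -7.81 to -5.87 and was at background on all arrays. No difference was established for either gene.

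Read against all 16702 tested genes, the IGF changes were not all alike. The share of genes with a lower change was 87.0% for Igf1r, 92.9% for Irs1, 94.5% for Igfbp6, 96.9% for Igfbp7 and 97.6% for Igfbp2. Igf1 and Igfbp3 were given no such rank, since the size of their differences rests on control values at background. All pre-miR-16 arrays lay above all control arrays for Igf1r, Irs1, Igfbp6, Igfbp7 and Igfbp2, as they did for 19% of all tested genes. The same order held for Igf1 and Igfbp3. Those genes passed the filter only through the pre-miR-16 arrays, which largely sets that order in advance. With 3 arrays per group, an exact permutation test of a single gene cannot give p below 0.1.

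**Figure D3:**
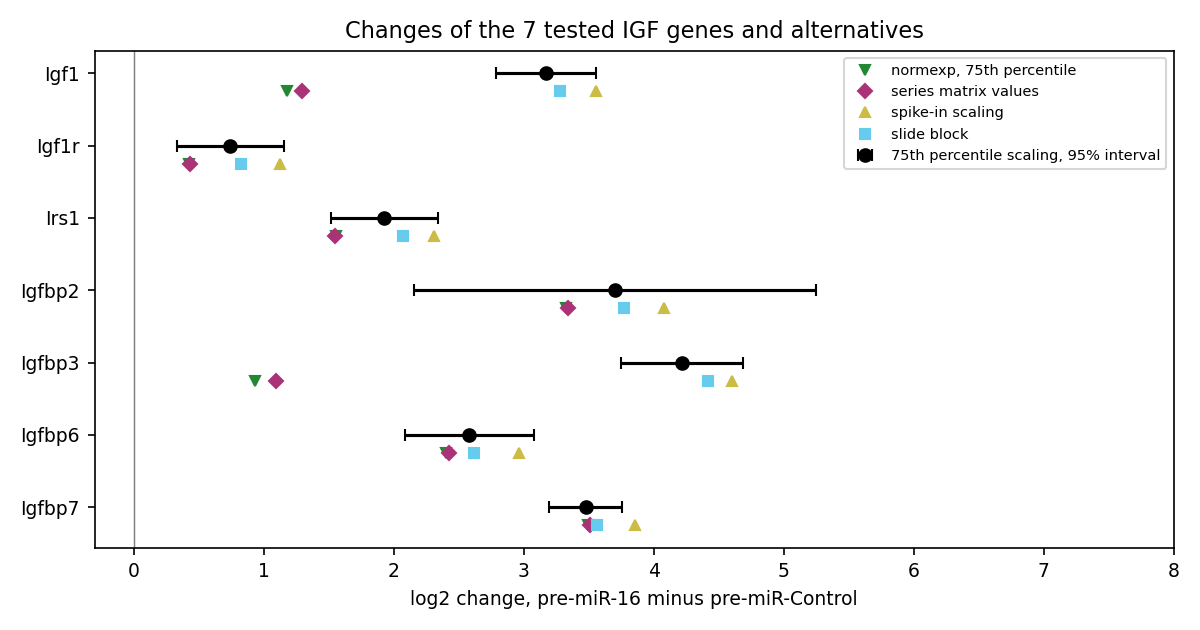
Log2 change of the 7 tested IGF genes, pre-miR-16 minus pre-miR-Control, with its 95% interval from limma (black) and, under it, the change with 4 other ways of processing (coloured marks). All marks lie above 0, with Igf1r closest to it at 0.42, and normexp and the series matrix move Igf1 and Igfbp3 far to the left, to between 0.93 and 1.30.

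The arrays lay on 3 slides: replicate 1 of both groups on slide 1, control replicates 2 and 3 with pre-miR-16 replicate 2 on slide 2, and pre-miR-16 replicate 3 alone on slide 3. Within slide 1, where each group had 1 array, the log2 changes were 3.04 for Igf1, 0.57 for Igf1r, 1.78 for Irs1 and 2.99 for Igfbp2. There they were 4.15 for Igfbp3, 2.19 for Igfbp6 and 3.57 for Igfbp7. Within slide 2 they were 3.46 for Igf1, 1.03 for Igf1r, 2.29 for Irs1 and 4.36 for Igfbp2. There they were 4.61 for Igfbp3, 2.94 for Igfbp6 and 3.56 for Igfbp7. All were above 0 on both slides. For Igf1 and Igfbp3 these values rest on control signals at background, so their sizes cannot be set against each other between slides.
With slide as a block, in which slide 3 carries no weight, the changes ran from 0.83 for Igf1r (adjusted p = 0.0480 in limma) to 4.41 for Igfbp3.

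The pre-miR-16 arrays kept a common order over the IGF genes. Replicate 2 was the highest of the 3 for all 7 tested genes, and replicate 3 was the lowest for 6, Irs1, Igf1, Igf1r, Igfbp2, Igfbp3 and Igfbp7. Among all tested genes replicate 2 was highest for 39.8% and replicate 3 lowest for 28.2%, and among genes called higher for 61.6% and 44.6%. The deposited series matrix has pre-miR-16 replicates 1 and 2 the other way round from the scanner files, so which of the 2 arrays is replicate 2 rests on the labels of the scanner files. Replicate 2 was also highest for 11 of 12 fibroblast markers and 11 of 12 macrophage and leukocyte markers. The control arrays shared no such order. Control replicate 3 was lowest for 11 of 12 macrophage and leukocyte markers, but for 3 of 12 fibroblast markers and 2 of the 7 IGF genes. This order rests partly on background readings. Ptprc, Adgre1, Itgam, C1qa, C1qc and Tyrobp were at background on control replicate 3, and Igf1 and Igfbp3 on all control arrays. Among all tested genes control replicate 3 was lowest for 38.5%.

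Markers of cell types changed in both directions. Over all tested genes, 16% were called higher and 33.1% lower. Of 12 fibroblast markers, 11 were higher and 0 lower, and their summed linear level, in units of the 75th percentile, went from 416 to 488 on control arrays to 680 to 870 on pre-miR-16 arrays. Of these, Lum and Fap passed the filter only through the pre-miR-16 arrays. The collagen genes Col1a1, Col1a2 and Col3a1 changed by 3.94, 4.16 and 4.42 on the log2 scale, whereas Dcn, a matrix proteoglycan of fibroblasts, read -0.07 and was not called. Dcn was the brightest of the list, at 8.68 in the control mean and 8.61 in the pre-miR-16 mean. It held most of the summed level on control arrays, so that sum says little about the other fibroblast markers. Of 12 macrophage and leukocyte markers, 11 were higher and 0 lower, and their sum went from 16.2 to 22.0 up to 216 to 263. Of these, Ptprc, Adgre1, Itgam, C1qa, C1qc and Tyrobp passed the filter only through the pre-miR-16 arrays, which largely sets their direction in advance. Lyz2, at 7.60 in the pre-miR-16 mean, held most of the sum on pre-miR-16 arrays. Ptprc, the pan-leukocyte surface phosphatase, was at background on all 3 control arrays and was at least 12.0-fold higher. The macrophage genes Adgre1 and Cd68 changed by 7.55 and 3.09. Adgre1 was above background on 2 control arrays, so the size of its change rests partly on a reading at background. Csf1r, the macrophage growth factor receptor, read -0.51 and was not called.
Of 6 adipocyte markers, 3 were tested and 2 were higher, Fabp4 by 3.75 ± 0.91 and Lpl by 2.74 ± 0.20 (log2, SE), with sums of 0.773 to 1.26 against 4.56 to 19.5, and the defining genes Adipoq, Plin1 and Lep did not pass the filter. Of 8 endothelial markers only Vwf passed the filter and it was not called, with sums of 14.6 to 16.8 against 9.97 to 19.7, and Pecam1, Cdh5 and Kdr did not pass.
Of 12 luminal epithelial markers, 0 were higher and 8 lower, with sums of 1014 to 1152 against 612 to 645. With spike-in scaling 2 were lower, beside 1041 of the 16702 genes in all. The median change of the list then went from -0.56 to -0.17. The keratins Krt8, Krt18 and Krt19 changed by -1.19, -0.95 and -0.56, and Erbb2, the receptor named for these cells, by -0.02, or 0.36 with spike-in scaling, uncalled in both. Of 8 basal and myoepithelial markers, 6 were tested, 3 were higher and 2 lower, with sums of 115 to 150 against 261 to 376. Krt17 held most of the sum on control arrays and Acta2 on pre-miR-16 arrays, so the sums say little about the list as a whole. Among the keratins of that list Krt14 and Krt17 changed by -1.95 and -1.83, and Krt5 by 0.24 without being called. The 3 called higher were Acta2, Myh11 and Cnn1, by 3.36, 2.27 and 4.04, and Myh11 passed the filter only through the pre-miR-16 arrays. The part of these shifts in the changes of the IGF genes was not tested.

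The rest of the pathway held genes called in both directions. Of 57 other pathway genes described, 56 had a probe, all but Irs2, and 47 were tested: 11 were higher, 6 lower and 30 were not called at an adjusted p under 0.05 in limma, where 16% of all tested genes were higher and 33.1% lower. Their median log2 change was -0.0024, against -0.20 for all tested genes. With spike-in scaling 18 were higher and 2 lower, against 3672 and 1041 of the 16702 genes in all, with median centring 10 were lower, and with slide as a block 7 were higher and 5 lower.

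Of the proteases that cut binding proteins and their inhibitors, 3 of 6 were tested. Pappa, which cleaves IGFBP4 and thereby frees IGFs, read -3.89, -4.07 and -3.83 on control arrays and 0.45, 0.94 and 0.32 on pre-miR-16 arrays. It changed by 4.50 ± 0.18 on the log2 scale (SE, adjusted p = 1.62e-05 in limma), the largest measured change among the listed pathway genes, and by 3.27 with normexp. With the mean of its kept probes in place of the brightest, the change was 3.88 ± 0.26. Htra1, a secreted serine protease that can cut binding proteins, changed by 1.53 ± 0.14, from 4.95 to 6.48. Stc2, an inhibitor of PAPPA, changed by -0.91 ± 0.13, from 4.88 to 3.97, but by -0.53 with spike-in scaling (adjusted p = 0.0627 in limma).

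Among the other receptors, 3 of 4 were tested. Igf2r, which takes IGF2 up for degradation, read 2.04, 2.03 and 2.30 against 2.06, 2.48 and 1.89. Its groups overlapped, and the change was 0.02 ± 0.18 (SE, adjusted p = 0.931 in limma). Insrr, an insulin receptor relative, changed by -0.54 ± 0.17 (adjusted p = 0.0419 in limma), and the call was lost in 12 of 18 alternatives. Insr, the insulin receptor, was above background on 1 array, and neither Igfbp1, on 2 arrays, nor Igfals, the subunit that completes the circulating complex with IGFBP3, on 0 arrays, could be tested.

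Of 12 adaptors and proximal regulators, 10 were tested, with 3 higher and 3 lower, beside 16% and 33.1% of all tested genes. Grb10, an adaptor that binds and restrains IGF1R and insulin receptors, read -1.79, -1.84 and -1.43 against 1.31, 1.82 and 1.18. The change was 3.13 ± 0.20 on the log2 scale (SE, adjusted p = 9.92e-05 in limma), with all pre-miR-16 arrays far above all controls. Its relative Grb14 went the other way, by -1.18 ± 0.15, as did Gab1, a docking protein that recruits PI3K and SHP2, by -1.19 ± 0.21.

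In the PI3K-AKT-TOR branch 2 of 18 tested genes were higher and 1 lower, beside 16% and 33.1% of all genes. Eif4ebp1, the translation repressor that TOR phosphorylates, changed by 0.44 ± 0.13, and Pik3cb, a catalytic PI3K subunit, by -0.44 ± 0.15, with calls lost in 10 and 9 of 18 alternatives. Mtor, the TOR kinase itself, changed by 0.28 ± 0.08 and also lost its call in 9 of 18. In the ERK branch 1 of 8 genes was higher and 0 lower. Map2k1, the kinase that activates ERK, changed by 0.71 ± 0.10.

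Of 5 genes tied to Igf2 by RNA binding or imprinting, 3 were higher and 0 lower, beside 16% and 33.1% of all tested genes. The count held Igf2bp1 only through the pre-miR-16 arrays. Igf2bp1, which binds Igf2 messenger RNA, was at background on all 3 control arrays and was at least 2.59-fold higher, with 0.53 for its log2 change under normexp. Igf2bp2, from the same family, changed by 2.51 ± 0.26, and by 1.17 with normexp. Plagl1, an imprinted zinc finger gene, changed by 2.08 ± 0.15. Igf2 itself stayed at background, and H19, its imprinted neighbour, read -4.39 and -4.60 in the group means and was not called.

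**Figure D4:**
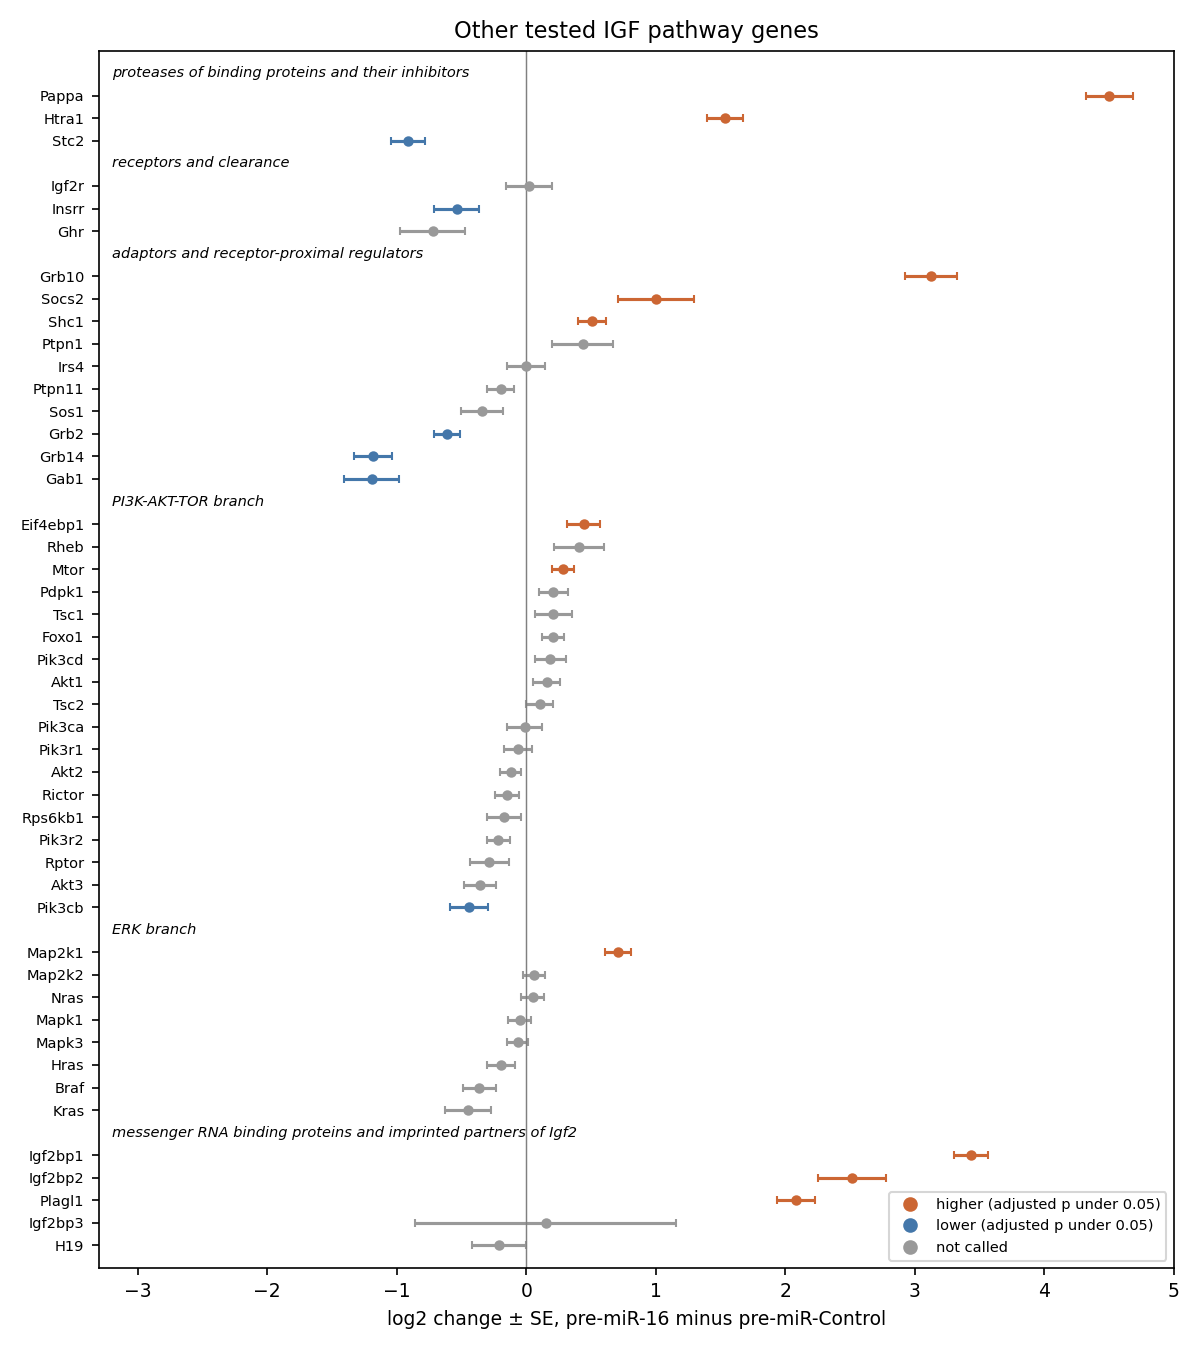
Log2 change ± SE of the 47 other IGF pathway genes tested, pre-miR-16 minus pre-miR-Control, grouped by role, with orange for genes called higher, blue for lower and grey for not called. Pappa at 4.50, Igf2bp1 and Grb10 stand far to the right, and the PI3K-AKT-TOR and ERK genes lie close to 0. The position of Igf2bp1 rests on control values at background.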

How the data were processed

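Total RNA of 6 cultures was labelled with Cy3 and hybridised to single-colour Agilent mouse arrays, 1 array each, per the labels. The deposited scanner files hold spot intensity after background subtraction and detrending within the array by Agilent Feature Extraction 9.5.3.1, per the file headers, together with the raw intensity used for normexp (offset 50). The deposited series matrix holds log2 values whose normalization the labels do not state, with column medians from 6.79 to 6.81. Its pre-miR-16 columns 1 and 2 correlate best with the scanner files of the other (Spearman 0.965 and 0.970) and less with their own (0.946 and 0.944), which leaves a comparison of groups as it is, while the replicate block and the names of these replicates depend on it. No deposited column lacked a sample.

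With R 4.3.3, outlier spots (74 to 113 per array) were left out, the 43379 spots were averaged per probe on the log2 scale, and each array's 75th percentile was subtracted. Probes were kept where a share of at least 0.5 of their spots passed the scanner's background call on every array of either group (23827 probes). The brightest kept probe stood for a gene. Groups were compared with lmFit and eBayes of limma 3.58.1, two-sided, with Benjamini-Hochberg adjustment over all genes or, for single probes, over all probes kept. A bound sets the bright group's mean against, per array of the dim group, the higher of the lowest signal well above background and the probe's own. Coordinates are those of the files (mm7). Exon and UTR positions were not used here. The precision is limited by the 6 arrays.

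All IGF genes were described, of the pathway lists up to 3 called genes each with the largest change and no overlap, with Igfbp1, Igfals, Igf2r, Insr, Irs2, Pappa and Grb10 regardless, and of the markers the first 3 of each list. Dcn, Lum, Fap, Csf1r, Itgam, Lyz2, C1qa, C1qc, Tyrobp, Vwf, Lep, Lpl, Acta2, Myh11, Cnn1 and H19 fall outside this rule and were named after their values were seen. Some genes of the pathway lists are not reported here and are left out of the counts. The genes, lists and alternatives were chosen with earlier results of these data known. Alternatives were other scalings, background corrections, filters, probe rules, blocks and leaving out each array. Code was tested on simulated data.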

Additional observations from a re-analysis of the deposited data

How the results depend on the processing

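The 7 IGF genes tested with the percentile were called higher under every alternative that tested them, 18 for Igf1r, Irs1, Igfbp2, Igfbp6 and Igfbp7 and 17 for Igf1 and Igfbp3, which were not tested when probes had to be well above background on all 6 arrays. No IGF gene was called lower. Without a filter on dim probes 10 were tested and 7 called, and without pre-miR-16 replicate 3, 8 were tested and 7 called. The highest adjusted p among them in limma was 0.0487, for Igf1r with a replicate block. No pairing by replicate number, as the scanner files give it, was visible. Deviations from the group means correlated at -0.09, -0.03 and -0.0028 for same-numbered arrays and from -0.05 to 0.09 for the others. Taken from means of 3 arrays, these values cannot settle whether the cultures were paired. With the replicate block 7 IGF genes were still called, with 9 other pathway genes higher and 4 lower. The other pathway genes called higher moved from 11 to 18 with spike-in scaling and 7 with slide as a block. Those called lower moved from 6 to 2 with spike-in scaling and to 10 with median centring. Leaving out 1 array at a time gave 8 to 13 higher and 4 to 8 lower. The uncalled change of Igf2r turned to -0.068 with median centring, to -0.020 without control replicate 1, to -0.025 without control replicate 2 and to -0.15 without pre-miR-16 replicate 2, and was at most 0.15 without any other array. The causes of these moves were not tested. Igf2, Igfbp4, Igfbp5 and the control levels of Igf1 and Igfbp3 are limited by signal at background.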
